A study of Mus musculus with 9 samples.

Results

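Expression of 9 genes that move cells through the G1 phase of the cell cycle was examined in RNA-Seq libraries of osteoblasts and endothelial cells (ECs). They are the D cyclins (Ccnd1, Ccnd2, and Ccnd3), the E cyclins (Ccne1 and Ccne2), the kinases that these cyclins activate (Cdk4, Cdk6, and Cdk2), and Myc, which encodes a growth-promoting transcription factor. The genes were chosen by symbol for their known roles, several as targets of β-catenin or of the GSK3 kinases, and make up 9 of the 50686 genes counted. The libraries came from control MC3T3-E1 cells, a mouse osteoblast line, from MC3T3-E1 cells given 10 μM of the GSK3 inhibitor SB216763 for 14 days, and from untreated mouse pulmonary ECs. There were 3 libraries in each of the 3 groups. MC3T3-E1 is 1 cell line, and the sources used here do not say whether replicates were separate cultures, so p-values measure the spread between these libraries, which may be technical. The strain and age behind the ECs and the time in culture and vehicle of the control osteoblasts are not given in the sources used here. Effects of the inhibitor and of days in culture can therefore not be told apart.

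In G1, growth signals raise the D cyclins, which bind CDK4 or CDK6 and begin to phosphorylate the retinoblastoma protein. This releases the E2F factors, which switch on the E cyclins. Cyclin E bound to CDK2 completes the phosphorylation and drives entry into S phase. GSK3 phosphorylates cyclin D1 and MYC proteins and marks them for destruction, and it also marks β-catenin, which with TCF/LEF factors can activate the genes Myc and Ccnd1. RNA-Seq measures transcripts, so protein stability was outside what was measured here.

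The genes lie on 7 mouse chromosomes, and their positions are given here from GENCODE M21 on GRCm38, the build named in the submitters' processing notes. Ccnd1 is at chr7:144929931-144939925 and Ccne1 at chr7:38097984-38107534, Ccnd2 at chr6:127125162-127152193, Ccnd3 at chr17:47505051-47599691, and Ccne2 at chr4:11191351-11204779. Cdk2 is at chr10:128697939-128705031 and Cdk4 at chr10:127063534-127067920, Cdk6 at chr5:3341485-3531008, and Myc at chr15:61985391-61990374. Promoter sequences from RefSeq on GRCm38.p6 were matched for 5 of the 9 genes (Ccnd3 with a pair of start sites, Ccne1, Cdk2, Cdk4, and Cdk6). The 250 bases before each start site were searched on both strands for the E-box CACGTG, which MYC and its partner MAX can bind, for TTTCGCGC, TTTGGCGC, TTTGCCGC, and TTTCCCGC as E2F words, and for CTTTG followed by AA or by AT or by TA or by TT as TCF/LEF words. The promoter of Cdk4 is shown because it held 4 E-boxes. It covers chr10:127063285-127063534 on the plus strand, with the 4 E-boxes and 1 TCF/LEF match, on the other strand, in capitals.
Cdk4 promoter: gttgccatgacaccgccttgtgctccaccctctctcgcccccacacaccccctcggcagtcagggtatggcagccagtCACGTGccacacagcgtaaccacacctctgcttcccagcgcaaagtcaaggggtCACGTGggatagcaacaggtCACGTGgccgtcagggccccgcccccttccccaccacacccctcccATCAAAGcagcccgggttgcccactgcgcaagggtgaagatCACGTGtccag
Windows of the other matches follow, with the E-box of Cdk6 (chr5:3343653-3343698, plus strand) and the E2F match of Cdk2 (chr10:128705164-128705211, minus strand, found on the other strand of the gene) in capitals.
Cdk6 window: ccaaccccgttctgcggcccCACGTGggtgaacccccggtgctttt
Cdk2 window: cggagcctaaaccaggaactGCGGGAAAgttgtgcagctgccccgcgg
Of the 32851 promoters in the table, 6.02% held at least 1 E-box in the same window and 0.0213% held at least 4, whereas 1.86% held an E2F match and 14.8% a TCF/LEF match. None of these words was found in the windows of Ccnd3 and Ccne1. A match describes the letters and not a bound site.

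Total counts ranged from 30990107 to 68946333 per library, and all 9 genes passed the expression filter, with between 223 counts (Ccne2) and 94615 counts (Ccnd1) in any library. Levels are given as CPM, the counts scaled to a common library size with the TMM method of edgeR. Differences are given as log2FC, the log2 of the fold change, with its SE. FDR stands for the Benjamini-Hochberg adjusted p over 15531 tested genes from the quasi-likelihood F test in edgeR. A gene was called at an FDR under 0.01, and calls with an absolute log2FC of 2 or more, the cutoff of the study, were also counted. The 6 osteoblast markers had a summed level, most of it from Col1a1, of 20090 to 28687 CPM in control libraries, from 2826 to 2975 CPM with SB216763, and from 28.9 to 38.3 CPM in ECs. Each of the 6 was called lower with SB216763 than in the controls. The log2FC was -6.17 for Alpl, -3.74 for Ibsp, -3.52 for Sp7, -3.17 for Col1a1, and -1.12 for Bglap. Runx2 changed least, from 158 ± 21.7 to 116 ± 2.36 CPM with SB216763 (SD, n = 3, log2FC -0.44). The 6 endothelial markers summed to between 6240 and 6426 CPM in ECs, but only to between 3.17 and 3.96 CPM in the controls and between 4.33 and 4.96 CPM after treatment. In both osteoblast groups only 1 of the 6, Vwf, reached a mean of 1 CPM. It was at 1.16 ± 0.0881 CPM in the controls and 2.42 ± 0.0804 CPM after treatment (log2FC 1.07, called higher), and the others were not called. Epcam, a marker of lung epithelium, was at 0 in all libraries, and the 5 macrophage and leukocyte markers summed to between 47.6 and 49.8 CPM in ECs, nearly all from Cd68, with Ptprc at 0.0915 CPM.

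SB216763 treatment was accompanied by lower expression of 7 of the 9 genes and higher expression of 1, Ccnd3. Over all genes tested, 32% were called lower and 32.9% higher in this comparison, so calls in either direction were frequent (64.9%). Past the cutoff of 2, there were 3 of the genes (Myc, Ccne2, and Cdk6), all lower, against 9.65% of all genes (5.84% lower and 3.81% higher). The median log2FC of the 9 genes was -1.17, and that of all genes tested was 0.01. In bulk libraries such as these, fewer cells that express a gene and less RNA per cell cannot be told apart.

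**Figure D1:**
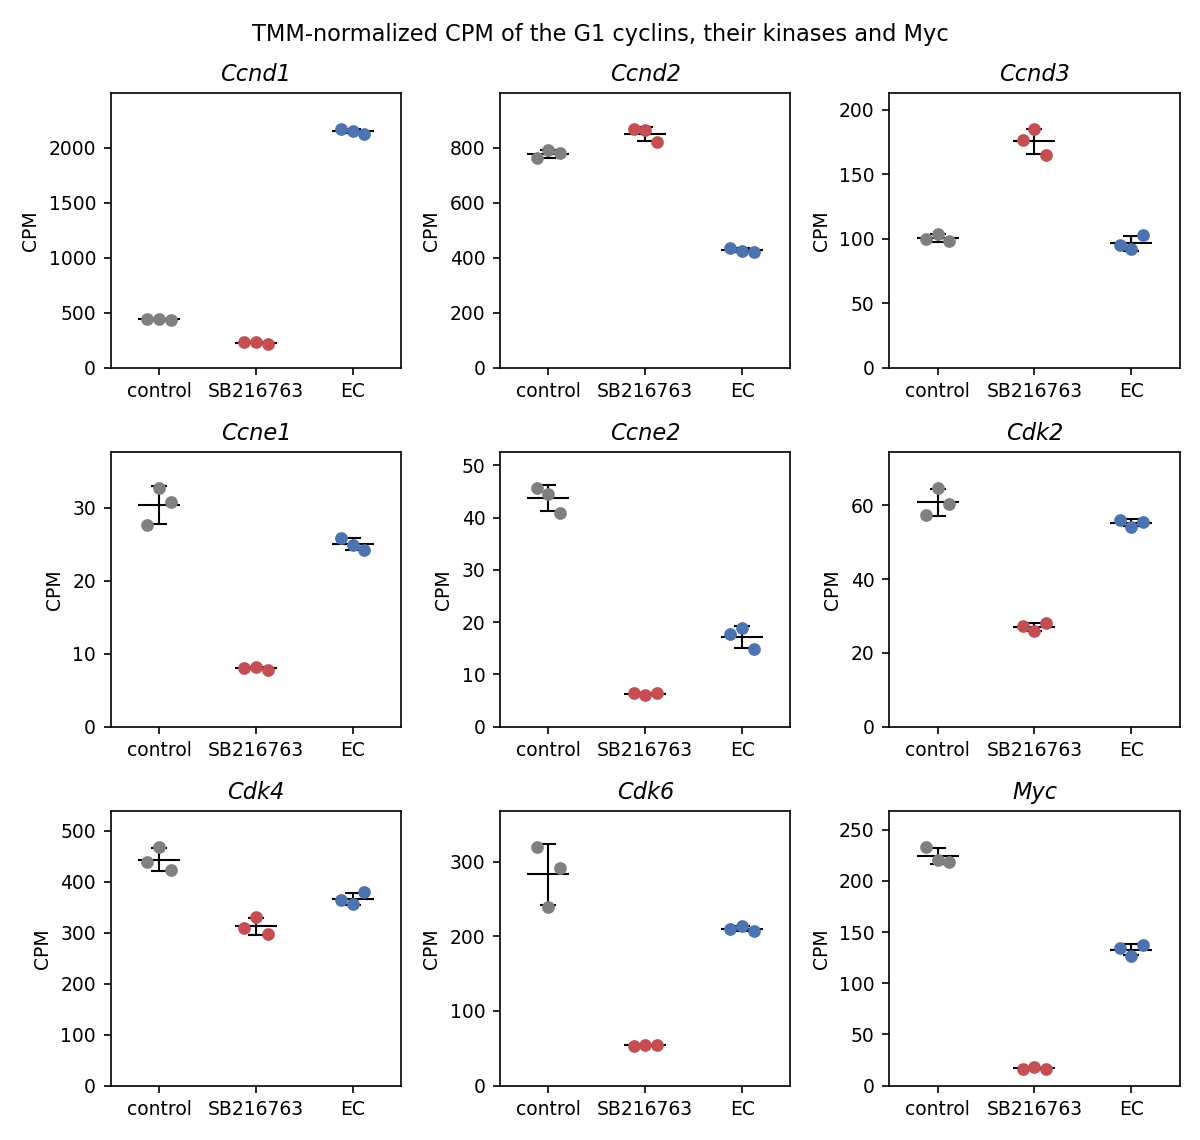
TMM-normalized CPM (y axis, linear from 0) of each gene in the 3 control, 3 SB216763-treated, and 3 EC libraries (points), with the mean and SD as black bars. The treated libraries lie below both other groups for 7 genes and above both for Ccnd2 and Ccnd3. Of all genes tested, 21.4% lie below both and 24.1% above both.

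Myc had the largest decrease of the 9. It was at 233, 220.3, and 219 CPM in the 3 control libraries, at 16.3, 17.8, and 16.6 CPM in the treated libraries, and at 134, 127, and 137 CPM in the ECs. The groups did not overlap, and the treated cells were far below both other groups. The treated level was 13.3-fold below the control level, a log2FC of -3.73 (SE 0.05, edgeR FDR 2.06e-17). Of all genes tested, 97.2% had a smaller change in either direction.

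Both E cyclin genes, whose products activate CDK2, fell with treatment. Ccne2 was at 45.6, 44.6, and 40.9 CPM in the controls, at 6.39, 6.15, and 6.40 CPM after treatment, and at 17.7, 18.9, and 14.9 CPM in ECs. Its treated libraries were nearly level with each other, and its log2FC was -2.79 (SE 0.08, edgeR FDR 5.39e-14). Ccne1 was at 27.6, 32.7, and 30.8 CPM in the controls, at 8.08, 8.13, and 7.82 CPM after treatment, and at 25.9, 24.9, and 24.2 CPM in ECs. Its control and EC libraries lay close together, and the treated libraries were 3.78-fold below the controls (log2FC -1.92, SE 0.07, edgeR FDR 7.72e-13). Cdk2, the kinase partner of both, was at 57.5, 64.6, and 60.4 CPM in the controls and at 56.1, 54.3, and 55.4 CPM in ECs. After treatment it was at 27.4, 25.9, and 28.0 CPM, below both other groups (log2FC -1.17, edgeR FDR 7.92e-12).

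The D cyclin genes did not move together. Ccnd1, which encodes the cyclin D most often linked to β-catenin, was at 442, 444, and 432 CPM in the controls and at 230.3, 234, and 219 CPM after treatment. This was a decrease of 1.93-fold (log2FC -0.95, SE 0.05, edgeR FDR 4.38e-11), and the 2167, 2156, and 2127 CPM of the EC libraries lay far above both osteoblast groups. Ccnd3 rose from 99.9, 104, and 97.9 CPM in the controls to 176, 185, and 165 CPM after treatment, and was at 94.9, 91.9, and 103 CPM in ECs. The treated libraries stood above all others, 1.75-fold over the controls (log2FC 0.80, SE 0.05, edgeR FDR 1.22e-09), while the control and EC libraries overlapped. Ccnd2 was at 764, 793, and 780.03 CPM in the controls and at 868, 863, and 823 CPM after treatment, with 436, 426, and 421 CPM in ECs. The osteoblast groups did not overlap, but the log2FC of 0.13 (SE 0.05, from 0.11 to 0.15 with single libraries left out) missed the threshold (edgeR FDR 0.0218). Without the third treated library the value was 0.15 and passed (edgeR FDR 0.00686), and it also passed with DESeq2, limma-voom, and other scalings (adjusted p from 4.51e-06 to 0.00605).

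Of the kinases that the D cyclins activate, Cdk6 fell more than Cdk4. Cdk6 was at 319, 239, and 291 CPM in the controls, the widest spread relative to the mean among the 9 genes in that group, and at 53.3, 54.6, and 54.7 CPM after treatment. The EC libraries, at 209, 214, and 207 CPM, lay between those groups. The log2FC was -2.38 (SE 0.08, edgeR FDR 2.45e-13), and leaving out single libraries gave values from -2.50 to -2.29. Cdk4 was at 438, 467, and 424 CPM in the controls, at 310.0, 329.7, and 298 CPM after treatment, and at 364, 356, and 379 CPM in ECs. The treated libraries were the lowest of the 9, but only 1.42-fold below the controls (log2FC -0.50, SE 0.05, edgeR FDR 3.57e-07).

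**Figure D2:**
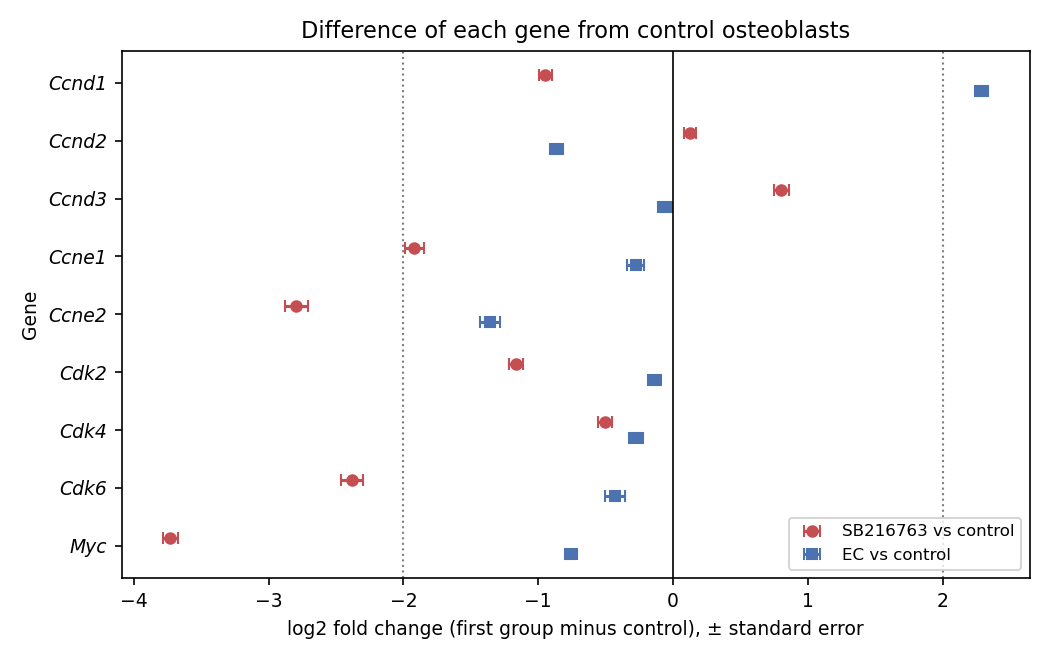
Log2 fold change of each gene against control osteoblasts (x axis, points with standard errors), for SB216763-treated osteoblasts (circles) and pulmonary ECs (squares). Both comparisons use the same 3 control libraries, and dotted lines mark log2FCs of -2 and 2. Myc, Ccne2, and Cdk6 lie beyond -2 after treatment, and Ccnd1 lies beyond 2 in ECs.

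Several of these genes overlap a neighbor on the opposite strand, and the strand setting of the counting is not given in the sources used here, so reads in the shared part cannot be told apart without it. With protein-coding neighbors, Ccnd1 shared 1100 bases of exon (LTO1), Cdk4 641 (Tspan31), Ccne2 609 (Ints8), Ccnd3 361 (Bysl), and Cdk2 34 (Pmel). Ccnd2 shared 372 and 368 bases with the antisense genes Gm43126 and 9330179D12Rik, and Cdk6 368 bases with Gm17590, all of which had a mean below 1 CPM in each group. Tspan31 rose from 67.7 ± 2.84 to 129 ± 8.19 CPM with treatment while Cdk4 fell, and Bysl fell from 68.5 ± 1.86 to 40.99 ± 1.22 CPM while Ccnd3 rose (SD, n = 3). Ints8 had a log2FC of -0.14 with treatment, and LTO1 one of 0.39. Pmel, at a mean of 0.833 CPM in the controls and 1.68 CPM after treatment, had a log2FC of 0.94 while Cdk2 fell. With treatment, Ints8 thus moved the same way as its partner by a smaller amount. LTO1, Tspan31, Bysl, and Pmel moved the opposite way to theirs. The part of shared reads in these values was not tested. Ccnd3 also has a processed pseudogene, Ccnd3-ps, which held at most 8 counts in a library.

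The levels of genes were compared per kilobase of exon, since longer genes collect more reads. In the control osteoblasts Cdk4 was highest with 136 ± 6.87 CPM per kb (SD, n = 3), followed by Ccnd1 with 93.3 ± 1.40, Ccnd2 with 82.8 ± 1.52, and Myc with 82.4 ± 2.83 CPM per kb. Ccnd2 and Myc did not differ beyond their spread. Cdk6, at 20.2 ± 2.91 CPM per kb, and Ccne2, Ccnd3, Ccne1, and Cdk2, between 9.78 and 12.5 CPM per kb, formed the lower part of the order. After treatment Cdk4 (96.2 ± 4.98 CPM per kb) and Ccnd2 (90.5 ± 2.62) led, with overlapping libraries, Ccnd3 stood above Myc, and Myc was at 6.21 ± 0.280 CPM per kb. In ECs Ccnd1 led with 457 ± 4.45 CPM per kb, above Cdk4 with 113 ± 3.55 and Myc with 48.8 ± 1.97. These lengths merge the exons of all transcripts. With the longest principal transcript as the length, an alternative chosen after seeing the data, Myc (164 ± 5.64 CPM per kb) stood above Ccnd2 and Ccnd1 in the controls, and Ccnd3 (47.6 ± 1.43) above Cdk6 (24.6 ± 3.53). With that length, treated Cdk4 (152 ± 7.89) stood above Ccnd2 (134 ± 3.89), and treated Ccnd3 (83.1 ± 4.65) above Ccnd1 (60.9 ± 2.02).

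Within the D cyclins the balance shifted from Ccnd1 toward Ccnd2 and Ccnd3 after SB216763, and the opposite held for ECs. Per kilobase, the Ccnd1 share of the 3 D cyclins was 49.7% ± 0.529 in controls, 30.5% ± 0.120 with SB216763, and 89.0% ± 0.135 in ECs (SD, n = 3). Ccnd2 made up 44.2% ± 0.549, 56.9% ± 0.430, and 8.86% ± 0.0809, and Ccnd3 made up 6.11% ± 0.105, 12.6% ± 0.340, and 2.14% ± 0.141. With the longest principal transcript as the length, the share of Ccnd3 was 16.5% in the controls and 29.8% after treatment, while that of Ccnd1 was 40.8% and 21.9%. The 3 genes summed to 188 ± 2.49 CPM per kb in controls, to 159 ± 5.21 with SB216763, and to 513 ± 4.67 in ECs. With the principal transcript as the length, the sums were 288 ± 4.37, 279 ± 10.2, and 688 ± 4.79 CPM per kb, and the control and treated libraries overlapped. The log2 ratio of Ccnd1 to Ccnd2 within a library, which does not depend on the scaling between libraries, differed from the controls by -1.07 after treatment and by 3.16 in ECs, against a pooled SD of 0.0260 and 0.0254. Both differences had the smallest p that 3 libraries against 3 can give (2-sided exact permutation test, p = 0.1).

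**Figure D3:**
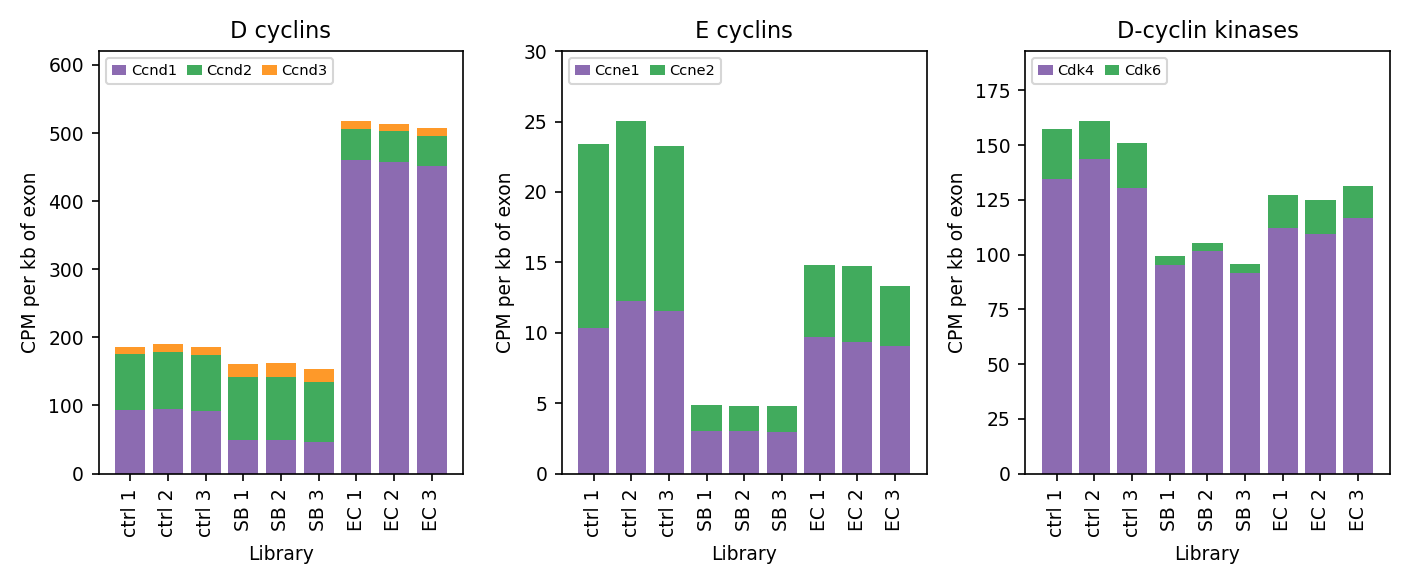
Stacked CPM per kb of merged exons (y axis, linear from 0) in each of the 9 libraries (x axis; ctrl, control; SB, SB216763-treated) for the D cyclins, the E cyclins, and the kinases of the D cyclins. The mean D cyclin total is 188 CPM per kb in the controls and 159 after treatment, and the mean E cyclin total is 23.9 and 4.82.

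The E cyclins dropped as a pair, from 23.9 ± 0.973 CPM per kb in the controls to 4.82 ± 0.0493 after treatment, against 14.3 ± 0.824 in ECs (SD, n = 3). The Ccne1 share of the pair was 47.7% ± 2.97 in controls, 62.5% ± 0.931 with SB216763, and 65.7% ± 2.41 in ECs. The log2 ratio of Ccne1 to Ccne2 was 0.87 higher after treatment than in the controls (2-sided exact permutation test, p = 0.1, the smallest possible). For the kinases, the Cdk6 share of Cdk4 and Cdk6 was 13.0% ± 2.05 in controls, 3.88% ± 0.200 with SB216763, and 11.8% ± 0.486 in ECs. The log2 ratio of Cdk4 to Cdk6 was 1.87 higher after treatment (p = 0.1, same exact permutation test), and 0.15 higher in ECs than in the controls, within the pooled SD of 0.20 (p = 0.4). That last difference was 0.05 without the first control library and 0.30 without the second.

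Compared with the control osteoblasts, the ECs had higher Ccnd1 and lower Ccnd2, Ccne1, Ccne2, Cdk4, Cdk6, and Myc. These 7 calls among 9 genes were near the 76.9% called in either direction among all genes in this comparison (39% higher and 37.9% lower). Ccnd1 was 4.89-fold higher (log2FC 2.29, SE 0.05, edgeR FDR 3.24e-16) and the only one of the 9 past the cutoff of 2, which 23.4% of all genes passed (13.5% higher and 9.87% lower). Ccne2 and Ccnd2 were lower with log2FCs of -1.36 and -0.87, Myc with -0.76, and Cdk6, Ccne1, and Cdk4 with -0.43, -0.28, and -0.27. With scaling by library size only, the calls of Ccne1 and Cdk4 were lost (edgeR FDR 0.0393 and 0.0113). Ccnd3 and Cdk2 had log2FCs of -0.06 and -0.14 and missed the threshold (edgeR FDR 0.306 and 0.0171), and Cdk2 passed without the first control library (log2FC -0.19, edgeR FDR 0.00377).

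The treated osteoblasts differed from the ECs in all 9 genes by edgeR's test, where 78.6% of all genes tested did (38.3% higher and 40.3% lower in the treated cells). Ccnd2 and Ccnd3 were higher in the treated cells, with log2FCs of 0.99 and 0.86, and the other 7 were lower. Ccnd1 was 9.43-fold and Myc 7.85-fold lower than in ECs, with log2FCs of -3.24 and -2.97, the only ones of the 9 past the cutoff of 2, which 25.3% of all genes passed (10.3% higher and 15% lower). Since the 3 comparisons share libraries, they are not independent. Set side by side, the treated libraries lay below all control and EC libraries for 7 of the 9 genes (77.8%), against 21.4% of all genes tested. They lay above all of them for the other 2 (22.2%), near the 24.1% of all genes tested. For Ccne1, Ccne2, Cdk2, Cdk4, Cdk6, and Myc the EC level lay between the control and the treated levels. The share of all genes tested with this order was not computed.

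Genes around the cyclins were counted in lists of textbook members, to be read against the 64.9% of all genes called between treated and control osteoblasts and the 76.9% called between ECs and controls. All 22 genes of S phase, G2, and mitosis were lower after treatment, 18 of them past a log2FC of 2 (median -3.24). Plk1, a mitotic kinase, went from 55.6 ± 0.775 to 2.69 ± 0.498 CPM, Ccna2, the S-phase cyclin, from 131 ± 6.14 to 7.47 ± 0.470 CPM, and the proliferation marker Mki67 from 213 ± 38.5 to 20.6 ± 3.03 CPM (SD, n = 3). Compared with the controls, ECs had 12 of the 22 higher and 6 lower (81.8% called, near the 76.9% of all genes), with Mki67 at 393 ± 15.9 CPM. Of the 10 E2F and DP factors, 8 were lower after treatment and the other two were not called, and E2f7 and E2f8, E2Fs that repress transcription, fell most, from 29.9 ± 1.88 to 2.18 ± 0.186 CPM and from 19.9 ± 0.289 to 1.68 ± 0.172 CPM. The numbers of E2F genes higher and lower in ECs were 5 and 4.

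**Figure D4:**
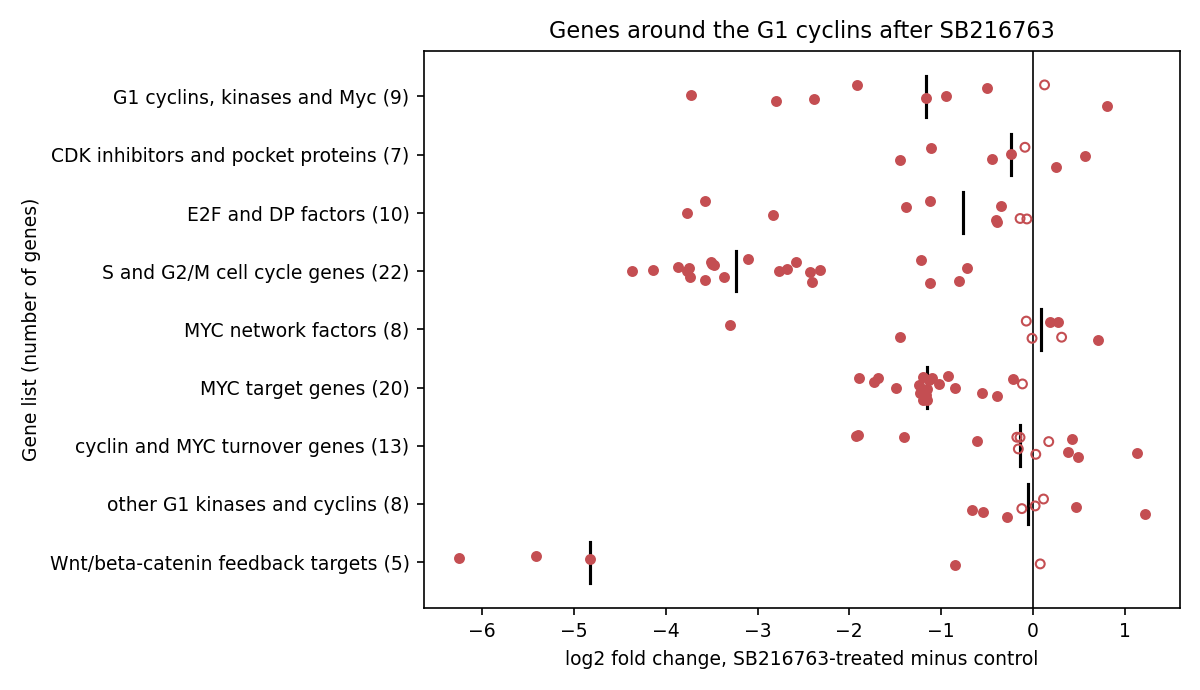
Log2 fold change between SB216763-treated and control osteoblasts (x axis) for the genes of each list (rows, number of genes in parentheses) that were tested and reached a mean of 1 CPM in either group. Filled points had an FDR under 0.01, open points did not, and black bars are medians. All 22 genes of S phase and G2/M lie below 0, with a median of -3.24.

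Among the CDK inhibitors and the pocket proteins, which restrain G1, 7 of the 10 tested were detected in MC3T3 cells, of which 4 were lower after treatment and 2 higher, none past a log2FC of 2. Cdkn1a, which encodes p21, went from 398 ± 18.1 to 475 ± 19.3 CPM, and Rbl2, the pocket protein of quiescent cells, from 41.6 ± 0.650 to 61.5 ± 1.80 CPM (SD, n = 3). Cdkn1b, which encodes p27, fell from 136 ± 10.4 to 62.7 ± 0.455 CPM, and the pocket protein gene Rbl1 from 48.6 ± 1.40 to 17.8 ± 0.977 CPM. The other 3, named after their values were seen, were Cdkn1c, which encodes p57, and Cdkn2a and Cdkn2b, which encode inhibitors of CDK4 and CDK6 (Cdkn2a also encodes ARF). They had at most 1 count in each of the 6 MC3T3 libraries, below the 3 counts taken as the smallest detectable level. In ECs, through which they passed the filter, they were at 1.75 ± 0.259, 27.3 ± 0.483, and 40.8 ± 0.777 CPM.

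Of 20 textbook MYC targets, many of them genes of ribosome production, 19 were lower after treatment and the other was not called, none of them past a log2FC of 2 (median -1.16). Npm1, which encodes nucleophosmin, fell from 1578 ± 59.6 to 426 ± 13.5 CPM, and Srm, which encodes spermidine synthase, from 117 ± 6.82 to 35.1 ± 2.02 CPM (SD, n = 3). In ECs 16 of the 20 were lower and 3 higher than in the controls (median -0.39). Of all genes tested, 32% were lower after treatment, and 37.9% were lower and 39% higher in ECs. Myc was at 133 ± 5.36 CPM in ECs, and a link between its level and these genes was not tested. Of 8 partners and antagonists of MYC detected in MC3T3 cells, 3 were higher and 2 lower, a share of 62.5% that was near the 64.9% of all genes. Mxd3 fell from 16.8 ± 1.40 to 1.69 ± 0.299 CPM and Mxi1 from 32.9 ± 1.36 to 12.03 ± 1.10 CPM, whereas Mlx rose from 24.5 ± 1.02 to 40.1 ± 2.86 CPM and Mnt from 67.6 ± 3.98 to 82.2 ± 2.78 CPM. Mycn and Mycl, named after their values were seen, had at most 2 counts in any MC3T3 library and passed the filter only through ECs.

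Of 13 tested genes that mark cyclins and MYC for destruction or control that step, 4 were higher after treatment and 4 lower, a share of 61.5% that was near that of all genes. Cul1, a scaffold of the ubiquitin ligase, rose from 187 ± 4.39 to 411 ± 10.1 CPM, and Rbx1, its ring subunit, from 70.9 ± 3.81 to 99.4 ± 3.98 CPM (SD, n = 3). Fbxw7, whose product recognizes cyclin E and MYC after phosphorylation by GSK3, fell from 30.98 ± 0.937 to 20.2 ± 0.730 CPM, and Skp2, which targets p27, from 33.6 ± 0.806 to 8.95 ± 0.475 CPM. Cks2 fell from 35.8 ± 1.83 to 9.45 ± 0.661 CPM. Among 8 further kinases and cyclins, 2 were higher and 3 lower, also near the share of all genes (62.5%), with Ccng2, a cyclin of arrested cells, rising from 16.6 ± 0.569 to 38.8 ± 0.974 CPM, and Cdk5, Mnat1, and Cdk8 having log2FCs of 0.47, -0.54, and -0.67.

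The feedback targets of Wnt/β-catenin signaling, a readout of the pathway that GSK3 restrains, were also read. Of 10 listed genes, 6 passed the expression filter. The others were not tested, though some had counts in the control libraries. Of the 6 tested, Sp5 had 0 counts in all MC3T3 libraries and passed the filter only through ECs. Of the 5 tested genes detected in MC3T3 cells, 4 were lower after treatment, and Znrf3 was not called, at 32.6 ± 2.24 and 34.4 ± 1.14 CPM. Sp5 and Znrf3 were named after their values were seen. Axin2 went from 25.99 ± 1.46 to 0.908 ± 0.0746 CPM, Tcf7 from 75.9 ± 3.32 to 1.79 ± 0.103 CPM, Rnf43 from 23.8 ± 2.51 to 0.306 ± 0.122 CPM, and Lef1 from 7.12 ± 0.733 to 3.97 ± 0.255 CPM (SD, n = 3). Myc and Ccnd1 were lower in the same treated libraries as Axin2. In ECs all 5 were also lower than in the controls, where 37.9% of all genes were. Axin2 was at 0.199 ± 0.0281 CPM in ECs, below its treated level. Ccnd1 was nevertheless 4.89-fold higher in ECs than in the controls, and Myc had a log2FC of -0.76. A link between these genes was not tested.

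For each of the 9 genes, the genes with the most similar profile over the 9 libraries were found by the root mean square difference of centered log2 CPM among 10555 genes with a mean of at least 5 CPM. Prpf19 (0.0229) and Myl6 (0.0234) were nearest to Cdk4, Pdcd4 (0.0271) and Tcp11l2 (0.0313) to Ccnd2, and Def8 (0.0285) and B4galt3 (0.0442) to Ccnd3. The nearest to Cdk2 was Dut (0.0424), a gene of DNA precursor synthesis, then Ebna1bp2 (0.0619), and the nearest to Ccne1 was Cks2 (0.0722), then Cdr2 (0.0792). Myc was closest to Sapcd2 (0.101) and to Cdca3 (0.105), a gene of mitotic entry that went from 99.4 to 7.24 CPM on average with treatment and was at 55.0 CPM in ECs. Ccdc85c and Lrp8 (0.0749 and 0.0757) came nearest to Ccnd1, Cenpp and Slc6a9 (0.108 and 0.127) to Ccne2, and Ptch1 and 1700025G04Rik (0.114 and 0.133) to Cdk6. Groups set most of these profiles, and the same libraries underlie all of them, so the values are descriptive.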

How the data were processed

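Total RNA of the 9 libraries was sequenced, and the authors aligned and counted reads per gene with STAR (version 2.5.3a and GRCm38 in the submitters' processing notes). The deposited values are raw counts without normalization, and the annotation and strand setting are not given in the sources used here. All columns were matched to samples by name. The sample labels carry the treatment protocol for every sample, so groups were taken from the titles. Symbols were found for 50376 of 50686 identifiers, and Skp1 and Cdk3 of the lists were not matched.

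Counts were filtered with filterByExpr, scaled by TMM, and fitted with a quasi-likelihood model of all 9 libraries in edgeR 4.0.16 (R 4.3.3). Log2 fold changes used a prior count of 0.125, log2 CPM a prior count of 2, and standard errors were derived from the F statistic. Ratios were tested with 2-sided exact permutation tests (scipy 1.17.1). Alternatives were DESeq2 1.42.0, limma-voom (limma 3.58.1), other scalings, filters, and thresholds, fits of 2 groups, the replicate number as a block, and leaving out each library. The 3-count limit, 0.0435 to 0.0968 CPM, covers counting error only. Replicates differed by more than counting error (chi-square per gene from 2.85 to 4.57 in EC pairs, 3.24 to 27.4 in treated pairs, and 27.2 to 104 in control pairs). On simulated counts of 15531 genes for treated against control osteoblasts, edgeR called 100 of 100 genes with a log2 fold change of 1, 100 of 100 with 3, and 3 of 15331 unchanged genes. The simulation gave all genes and groups the same spread beyond counting error and changed only those few genes. The real groups differed in spread and in most genes, so it does not measure the error rate of the calls made here.

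The 9 genes and the lists were chosen with earlier results of these data known. Named were the 9 genes, from each list up to 2 genes with the highest and up to 2 with the lowest log2 fold change after treatment among those called with at least 1 CPM, Axin2, Lef1, Mki67, Cdkn1a, and Fbxw7, and the 2 most similar genes of each of the 9. Opposite-strand neighbors, markers, and the list genes said in the text to be named after their values were seen fall outside this rule.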

Additional observations from a re-analysis of the deposited data

How the results depend on the processing

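The log2FCs of the 9 genes kept their side of the threshold in 451 of 459 recomputed values. Between treated and control osteoblasts, 7 genes were lower in every alternative at an FDR under 0.01 or 0.05, 5 past a log2FC of 1, and 3 past a log2FC of 2. The number higher was 2, with Ccnd2 added, under DESeq2, library-size scaling, upper-quartile normalization, limma-voom, and an FDR under 0.05, between 1 and 2 with each library left out, and 0 past a log2FC of 1 or 2. In ECs against controls the number lower was 1 past a log2FC of 1 and 0 past 2. Between treated osteoblasts and ECs, the number higher was 0 at 1 and at 2, and the number lower was 2 at 2. With library-size scaling, the median log2FC of all genes after treatment moved from 0.01 to 0.22 and the share of called genes that were higher from 50.7% to 63.7%, and Ccnd3 in ECs against controls reversed from -0.06 to 0.065 (adjusted p = 0.233 from edgeR), a difference that was not called in either. The cause was not tested. All 48 recomputed log2 ratios stayed within 1 pooled SD, but these alternatives could hardly have given another outcome. Leaving out 1 of 3 libraries cannot move a difference of means that far. The replicate block leaves the difference as it is, and adding 0.5 to each count is little at these counts. This is therefore no measure of robustness. All 21 recomputed shares moved with the longest principal transcript as the length, an alternative that was not applied to the ratios. The Ccne1 share of the E cyclins was then 51.03% ± 2.98 in controls, 65.6% with SB216763, and 68.7% in ECs. In the controls, Ccne1 and Ccne2 thus changed order on average, by less than the spread. The Cdk6 share of Cdk4 and Cdk6 was 10.2% in controls, 3.004% with SB216763, and 9.28% in ECs.

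For same-numbered replicates, the correlations of their deviations from the group means ran from -0.0392 to 0.123 over 15531 genes. They were 0.00286, 0.123, and 0.0810 between control and treated libraries, and at most 0.0337 in pairs with ECs. Libraries with different numbers were not compared in this way, so whether the numbers mark a pairing or a batch was not tested. With the replicate number as a block, 7 of the 9 genes were lower and 1 higher after treatment, 6 lower and 1 higher in ECs against controls, and 7 lower and 2 higher in treated osteoblasts against ECs. The ratio differences within the same number were unchanged by construction, and 3 pairs cannot give an exact permutation p under 0.25.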
